A study of Mus musculus with 24 samples.

Results

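The genes described here are 37 genes of cholesterol and lipid synthesis and their regulators, measured in the mouse microglial cell line SIM-A9. They were chosen by symbol, with earlier results of these data known, and matched through GENCODE names to the 54838 gene identifiers of a table of raw read counts. Shares of them called are therefore descriptions and not tests of the list. Of the 37 genes, 35 passed a filter on low counts and were tested among 13116 genes. The other two, Scd1 and Fads2, held 0 to 9 and 0 to 2 reads per library and are given as levels only. The genes fall into a mevalonate arm of 7 genes, an arm from squalene to cholesterol of 11, a group of 6 for the sterol-sensing system and a sterol carrier, 8 genes of fatty acid synthesis, 3 targets of the liver X receptors (LXR) and the 2 receptor genes. Both sterol arms together with Insig1 and Stard4 are called the 20 sterol genes below, and all 20 were tested.

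Poly-A RNA of 24 libraries was sequenced, in 8 groups of 3. All wells shared the same handling per the labels' protocols: cells grown with 10% fetal bovine serum and 5% horse serum were moved to 270 uL of serum-free medium for 2 h, and RNA was taken 2 h after 30 uL of a 10x concentrate was added. The study asked how probes for recording from neurons, or for delivering genes to them, affect microglia, and used LPS as its inflammatory reference. The groups were untreated cells (control), LPS (bacterial lipopolysaccharide), (GT)6 SWCNT (single-walled carbon nanotubes, named for a short repeat DNA used to wrap them), COOH SWCNT (carboxylated nanotubes), the calcium indicator Fura-2, AAV (adeno-associated virus) and 2 voltage dyes, DiBASC2 and Di-2-ANEPEQ. Doses, the cargo of the virus and a vehicle for the control wells are not given in the sources used here. All groups, the controls included, were thus without serum and its lipoproteins from 2 h before treatment until lysis. The treatment label of the DiBASC2 libraries ends in a different digit in each, and the deposited columns spell the dye DiSBAC2, so the titles set that group. The labels do not say that replicates came from separate cultures, so p-values measure only the spread between these samples.

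Cells set their cholesterol synthesis by the cholesterol content of the endoplasmic reticulum. When it is low, SCAP escorts the precursor proteins SREBP1 and SREBP2 (genes Srebf1 and Srebf2) to the Golgi, where they are cut, and the released factors switch on the genes of sterol and fatty acid synthesis. When sterols are plentiful, INSIG1 and INSIG2 hold SCAP back. LXRs (genes Nr1h2 and Nr1h3) answer to oxysterols and to late sterol intermediates and switch on the exporters ABCA1 and ABCG1, the ligase MYLIP, which marks lipoprotein receptors for degradation, and Srebf1 itself. Insig1 and most genes of the pathway are SREBP targets, so both systems usually move in opposite directions. In microglia they handle cholesterol taken up with myelin and cell debris.

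SREBPs bind sterol regulatory elements and E-boxes, often beside the CCAAT box of NF-Y. RefSeq promoter windows (GRCm38.p6, 250 bases before to 50 after a start) were found for 29 of the 37 genes and for 16 of the 20 sterol genes. The 250 bases before the start are printed 5′ to 3′ on the gene's strand for 6 genes: Cyp51, Hsd17b7, Insig1 and Msmo1, the most lowered sterol genes in DiBASC2 for which a window is printed, Hmgcs1, which carried the element TCACNCCAC, and Abca1 as the LXR target for contrast. Capitals mark matches on either strand to CCAAT, to the E-box CACGTG or to TCACNCCAC. The starts are RefSeq's and differ from the GENCODE gene bounds. By those bounds most of the Msmo1 stretch, with its 3 CCAAT matches, lies inside the gene, whose 5′ end is at 64733792. The last bases of the Cyp51 stretch, with its only CCAAT match, and of the Hsd17b7 and Insig1 stretches also lie inside their genes. The windows are chr5:4104698-4104947 (minus strand) for Cyp51, chr1:169969206-169969455 (minus) for Hsd17b7, chr5:28071162-28071411 (plus) for Insig1, chr8:64733579-64733828 (minus) for Msmo1, chr13:119690101-119690350 (plus) for Hmgcs1 and chr4:53159896-53160145 (minus) for Abca1.
Cyp51: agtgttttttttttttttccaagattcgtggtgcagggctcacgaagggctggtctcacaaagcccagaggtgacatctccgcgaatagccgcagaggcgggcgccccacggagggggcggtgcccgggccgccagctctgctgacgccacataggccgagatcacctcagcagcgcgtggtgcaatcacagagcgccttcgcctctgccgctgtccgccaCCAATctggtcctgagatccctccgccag
Hsd17b7: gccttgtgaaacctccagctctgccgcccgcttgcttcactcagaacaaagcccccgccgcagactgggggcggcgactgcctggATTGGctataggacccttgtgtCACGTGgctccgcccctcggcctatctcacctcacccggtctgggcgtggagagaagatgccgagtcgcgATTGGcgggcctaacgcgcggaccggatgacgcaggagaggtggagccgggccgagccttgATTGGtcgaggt
Insig1: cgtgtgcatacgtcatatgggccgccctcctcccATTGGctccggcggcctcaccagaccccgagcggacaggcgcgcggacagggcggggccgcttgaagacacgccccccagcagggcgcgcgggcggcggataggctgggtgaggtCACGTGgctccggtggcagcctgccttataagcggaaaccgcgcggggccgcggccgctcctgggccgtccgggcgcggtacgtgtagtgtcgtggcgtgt
Msmo1: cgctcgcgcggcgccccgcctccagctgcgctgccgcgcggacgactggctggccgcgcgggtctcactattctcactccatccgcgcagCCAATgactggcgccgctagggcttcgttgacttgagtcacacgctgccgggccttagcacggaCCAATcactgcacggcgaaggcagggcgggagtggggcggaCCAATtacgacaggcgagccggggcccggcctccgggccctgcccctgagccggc
Hmgcs1: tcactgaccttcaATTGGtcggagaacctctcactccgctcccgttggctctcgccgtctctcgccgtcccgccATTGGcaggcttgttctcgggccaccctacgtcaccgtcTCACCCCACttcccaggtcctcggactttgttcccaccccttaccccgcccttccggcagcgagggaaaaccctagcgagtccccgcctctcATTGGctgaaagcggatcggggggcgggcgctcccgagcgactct
Abca1: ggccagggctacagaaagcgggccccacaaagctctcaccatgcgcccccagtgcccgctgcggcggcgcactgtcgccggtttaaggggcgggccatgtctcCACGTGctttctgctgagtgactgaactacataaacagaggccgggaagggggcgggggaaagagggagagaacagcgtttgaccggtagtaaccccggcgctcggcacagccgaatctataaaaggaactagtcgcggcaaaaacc

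CCAAT stood in 15 of 19 windows of sterol genes (78.9%; some genes have more than 1 window), beside 37.4% of all 32851 windows. In the printed stretches Hsd17b7, Msmo1 and Hmgcs1 hold 3 matches each, Cyp51 and Insig1 hold 1, and Abca1 holds 0. That 0 does not set LXR targets apart. Over their whole windows the LXR target Mylip held 3 CCAAT matches and the sterol gene Acat2 held 0. The E-box was in 4 of the 19 windows (21.1%) and in 7.15% of all windows. TCACNCCAC was in 1 of the 19 (5.26%), that of Hmgcs1, where it begins 137 bases before the start, and in 1.24% of all windows. An LXR-type repeat, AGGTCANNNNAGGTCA, was in 0 of 38 windows of the genes described here and in 5 of all windows. A match is a description of these letters and not evidence of binding. The strictness of the spelled motifs leaves variant elements uncounted.

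Total counts were 17364272 to 29259221 per library. All 13 microglia and macrophage markers, among them Csf1r, Trem2 and Cd68, were above 1 CPM (read counts per library, put on one scale through TMM factors) in every library, with a summed level of 2805 to 3122 CPM. Some were low: P2ry12 lay at 1.54 to 3.26 CPM, Aif1 at 2.68 to 5.27 and Tmem119 at 2.75 to 5.32. These are near the 3.04 to 5.43 CPM of the oligodendrocyte marker Mbp. Summed markers of astrocytes, neurons, endothelium and fibroblasts did not pass 1.03 CPM in any library, and those of oligodendrocytes lay at 3.41 to 5.80 CPM, nearly all of it Mbp. Syt1, Mog, Cldn5 and Dcn, defining markers of neurons, oligodendrocytes, endothelium and fibroblasts, had 0 counts in every library. Library index numbers run in blocks of 3 per group, so library order and group cannot be told apart. The members tested had a median of 1838.5 counts per library against 618.6 for all genes tested, so small changes are easier to call among them.

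In control, per length of transcript, the desaturase gene Scd2 was highest at 146 RPKM, followed by Cyp51 at 105.5, Acly at 81.1, Fasn at 75.7, Insig1 at 74.6 and Hmgcs1 at 68.3 RPKM. Fasn and Insig1 did not differ beyond their spread, with SDs of 4.15 and 2.68 RPKM. Srebf2 stood at 51.8 RPKM and Srebf1 at 19.9. The LXR targets were lower, with Abcg1 at 5.60, Mylip at 4.19 and Abca1 at 3.28 RPKM. Fdps (1.42 RPKM) and Tm7sf2 (0.495 RPKM) were the lowest of the tested members. Both share exonic bases with a neighbour on the same strand, so their levels are uncertain. Scd1, the paralogous desaturase gene, stood at 0.0362 RPKM.

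The map of log2 fold changes shows which branch changed in which of the 7 treatments. In DiBASC2 11 of 20 sterol genes fell and the LXR target Abcg1 rose. In LPS and (GT)6 SWCNT 10 and 5 of the sterol genes rose, 3 and 4 of the 6 tested fatty acid genes fell, and Abcg1 and Mylip fell. Abca1 rose in LPS and in COOH SWCNT. Few of the genes were called in Fura-2, Di-2-ANEPEQ and AAV. A gene is called higher or lower at a Benjamini-Hochberg adjusted p under 0.05 over all 13116 genes in edgeR's quasi-likelihood test. Whether libraries of 2 groups overlapped is given as a description of single genes. The share of all genes without overlap was not counted, so a lack of overlap adds no support to a call. The 7 comparisons with control share the same 3 control libraries, so they are not independent of each other. Being bulk measurements, none of them can tell fewer cells of a kind from less RNA per cell.

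**Figure D1:**
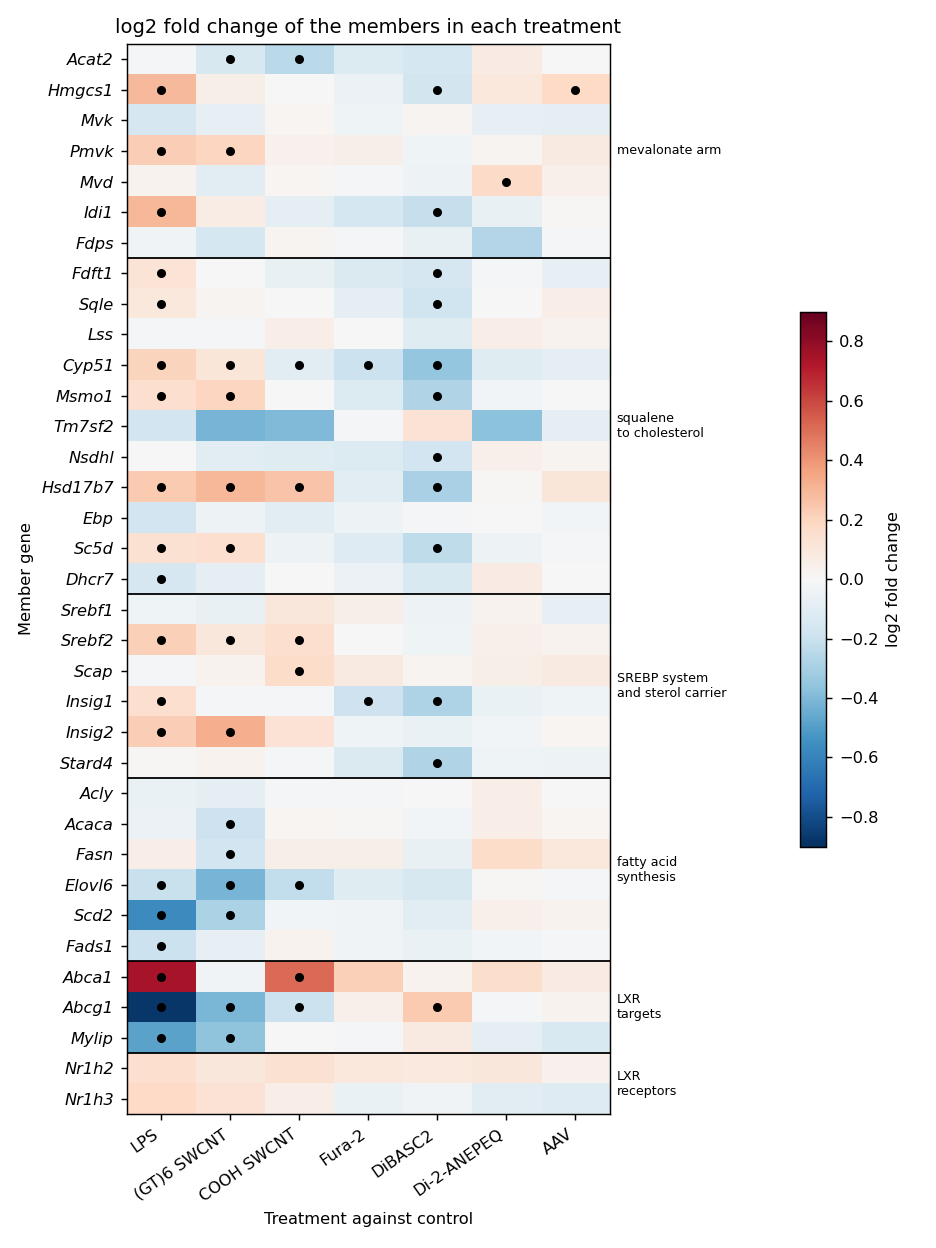
Log2 fold change of the 35 tested genes (rows, grouped by role) in each treatment against control (columns), in color from blue (lower) to red (higher), with a dot where a gene was called at an adjusted p under 0.05. Of the 20 sterol genes, 18 lie on the blue side and 2 on the red side in the DiBASC2 column, with 11 dots. The LXR target rows hold the extremes, from -0.87 for Abcg1 to 0.74 for Abca1, both in LPS.

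Sterol genes were lower in DiBASC2 through most of the pathway. In all, 12 of 35 members were called (34.3%), against 5.47% of all genes tested, 11 lower (3.64% of all genes) and 1 higher (1.82%). The 11 lower genes were all among the 20 sterol genes, of which 0 were higher. The median log2 fold change of the sterol genes was -0.16, beside 0.00 over all genes, and 18 of 20 were negative. The sum over the sterol genes was 2364 ± 58.6 CPM in control and 2036 ± 24.5 CPM in DiBASC2 (SD, n = 3 each), the lowest of the 8 groups.

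Cyp51, the lanosterol demethylase that opens the conversion of lanosterol, changed most. It stood at 475, 458 and 465 CPM in the control libraries and at 370.0, 372 and 357 CPM in DiBASC2, with no overlap (log2 fold change -0.35, SE 0.0371, adjusted p = 3.18e-08). Hsd17b7, a ketoreductase of the same stretch, went from 47.8, 45.7 and 46.2 to 36.2, 38.3 and 39.4 CPM (log2 fold change -0.30, SE 0.0537, adjusted p = 0.000408). Neither gene overlapped with control, and the mean level fell by 21.4% for Cyp51 and fell by 18.5% for Hsd17b7. Insig1, the sterol-regulated brake on SCAP and itself an SREBP target, stood at 240.3, 227 and 225 CPM in control and 187, 187 and 196 CPM in DiBASC2 (log2 fold change -0.28, SE 0.0387, adjusted p = 5.95e-06). Stard4, a cytosolic cholesterol carrier, stood at 42.97, 48.6 and 46.4 and 37.9, 37.1 and 39.5 CPM (log2 fold change -0.27, SE 0.061, adjusted p = 0.00399). Neither overlapped with control.

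The lower sterol genes ran through the pathway. In the mevalonate arm Hmgcs1, the synthase that makes HMG-CoA, went from 329.9, 302 and 309 to 281, 275 and 284 CPM (log2 fold change -0.16, SE 0.0372, adjusted p = 0.00505), and the isomerase gene Idi1 fell by 0.21 on the log2 scale. Mvk, Pmvk, Mvd, Acat2 and Fdps were not called. From squalene on, 7 of 11 genes fell: Cyp51 and Hsd17b7, the methyl oxidase gene Msmo1 by 0.27, the desaturase gene Sc5d by 0.23, squalene epoxidase Sqle by 0.18, Nsdhl by 0.17 and squalene synthase Fdft1 by 0.15 on the log2 scale. Sqle and Msmo1 did not overlap with control. Nsdhl went from 47.3, 48.2 and 44.4 to 38.9, 40.6 and 44.8 CPM and Fdft1 from 109, 104 and 102 to 94.8, 93.6 and 96.1 CPM. The libraries of Nsdhl overlapped with control.

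The genes for the SREBPs and SCAP were not called: the log2 fold changes were -0.05 for Srebf1, -0.04 for Srebf2 and 0.02 for Scap. All 6 fatty acid genes were negative, between -0.15 (Elovl6) and -0.01 (Acly), and 0 were called. Abcg1, which passes cholesterol to lipoprotein particles, was the 1 member higher in DiBASC2, at 46.1, 48.6 and 50.2 CPM beside 38.5, 44.2 and 39.8 CPM in control (log2 fold change 0.24, SE 0.0633, adjusted p = 0.0189). Abca1 (log2 fold change 0.03, 95% interval -0.12 to 0.18, adjusted p = 0.885) and Mylip (log2 fold change 0.08, 95% interval -0.11 to 0.28, adjusted p = 0.715) were not called. Cyp51, Hsd17b7, Insig1, Msmo1, Sc5d and Sqle stayed called when any 1 of the 6 libraries was left out. The other calls did not: Hmgcs1 (adjusted p = 0.0832) and Idi1 (0.0659) were lost without control replicate 1, Stard4 without control replicate 2 (0.05 after rounding), Fdft1, Nsdhl and Abcg1 without any of 3, 4 and 4 of the libraries, with adjusted p up to 0.152, 0.227 and 0.147. Fdft1 and Nsdhl were also lost with upper-quartile factors, without a low-count filter and in a fit of only the 2 groups.

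**Figure D2:**
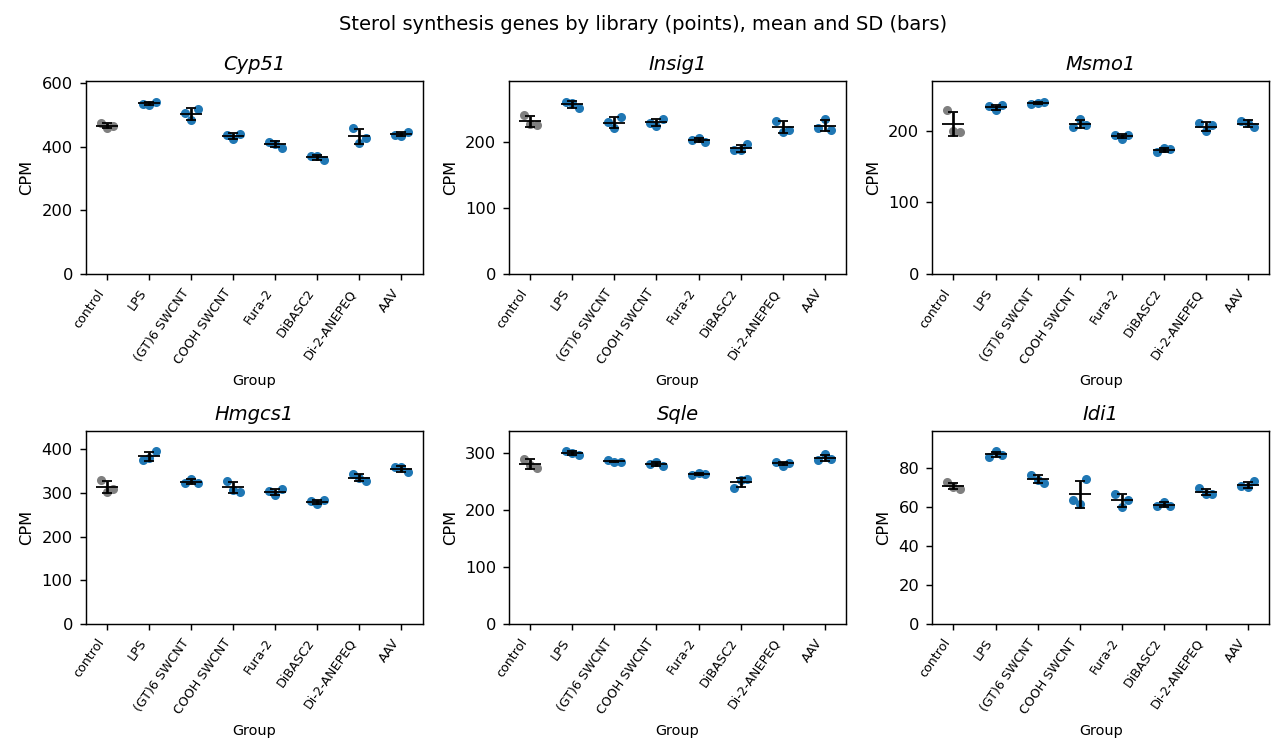
CPM of 6 sterol genes (panels, linear axes from 0) in each of the 8 groups on the horizontal axis; points are the 3 libraries, gray for control, and black marks give the mean and SD. In all 6 panels the DiBASC2 libraries lie below the control libraries, from 357 to 372 CPM against 458 to 475 CPM for Cyp51.

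DiBASC2 was also set against Di-2-ANEPEQ, the other voltage dye, which shares no library with the controls; this comparison was chosen after the values against control had been seen. Of 35 members, 18 were called (51.4%), against 8.95% of all genes tested, 17 lower (5.48% of all genes) and 1 higher (3.47%). Among the 20 sterol genes 14 were lower and 0 higher, with a median log2 fold change of -0.20. The doses of the dyes are not given, so this compares the wells as treated and not the compounds at a matched dose.

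Hsd17b7 was lowest, with 36.2, 38.3 and 39.4 CPM in DiBASC2 and 50.1, 42.996 and 47.5 CPM in Di-2-ANEPEQ (log2 fold change -0.31, SE 0.0523, adjusted p = 0.00012). Hmgcs1 stood at 281, 275 and 284 and 344, 335 and 327 CPM (log2 fold change -0.26, SE 0.0369, adjusted p = 8.37e-06). The libraries of these genes did not overlap. Msmo1 stood at 171, 176 and 174 and 211, 199 and 208 CPM (log2 fold change -0.25, SE 0.0402, adjusted p = 7.1e-05), and Cyp51 at 370.0, 372 and 357 and 459, 412 and 426 CPM (log2 fold change -0.24, SE 0.037, adjusted p = 3.24e-05). Here, too, every DiBASC2 library was below every Di-2-ANEPEQ library. Mvd (-0.21), Acat2 (-0.23), Dhcr7 (-0.21) and Lss (-0.17) were lower as log2 fold changes against Di-2-ANEPEQ and were not called against control. Of these, Mvd was itself called higher in Di-2-ANEPEQ than in control.

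Of the fatty acid genes, Fasn (-0.23), Elovl6 (-0.16) and Scd2 (-0.14) were called lower against Di-2-ANEPEQ. Fasn stood at 745, 771 and 854 CPM in DiBASC2 and 927, 931 and 926 CPM in Di-2-ANEPEQ, with no overlap. In control it stood at 777, 860 and 850 CPM, below every Di-2-ANEPEQ library. The summed fatty acid level was 2402 ± 116 CPM in DiBASC2, 2513 ± 76.8 in control and 2660 ± 20.5 in Di-2-ANEPEQ (SD, n = 3 each). These mean sums thus lay below control in DiBASC2 and above it in Di-2-ANEPEQ, and no fatty acid gene was called in either dye against control. Abcg1 was again the 1 member higher, at 46.1, 48.6 and 50.2 against 37.1, 41.4 and 43.2 CPM (log2 fold change 0.25, SE 0.0618, adjusted p = 0.00639). That call was lost without Di-2-ANEPEQ replicate 1 (adjusted p = 0.0914). Sc5d was lost without the same library (0.0608) and Nsdhl without DiBASC2 replicate 1 (0.0648). Fdft1, Lss, Elovl6 and Scd2 were lost without any of 5, 4, 5 and 3 libraries, with adjusted p up to 0.174, 0.24, 0.213 and 0.132, and all of these 4 with upper-quartile factors.

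**Figure D3:**
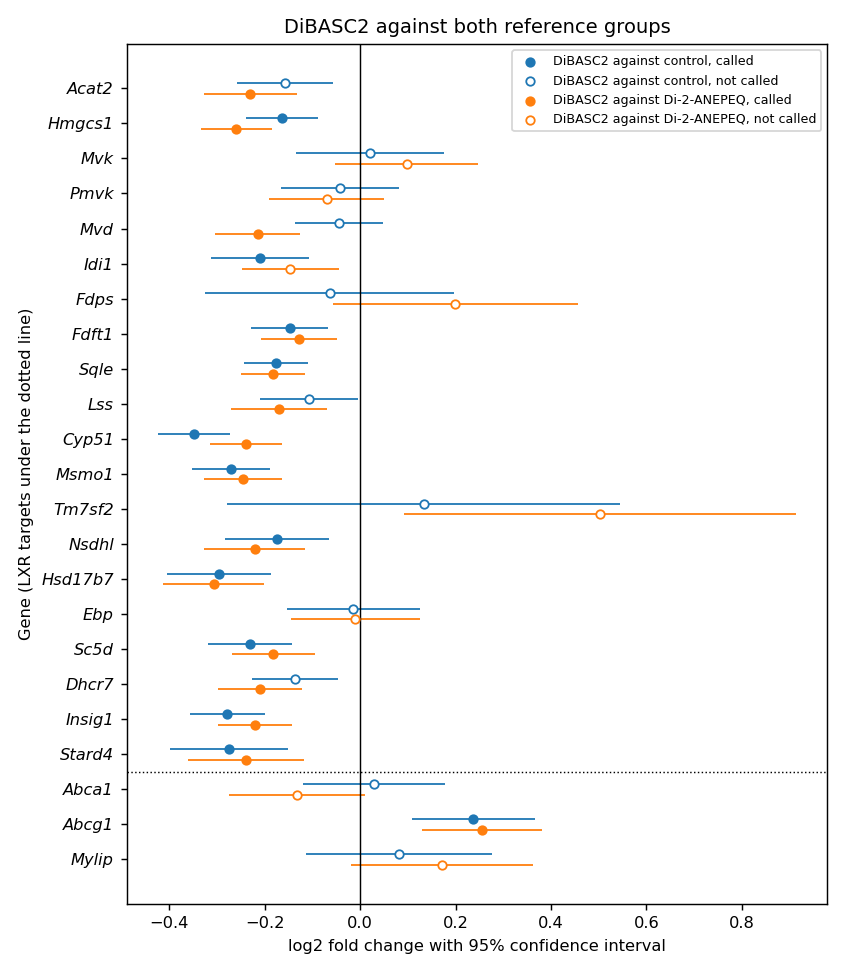
Log2 fold change with its 95% confidence interval (horizontal axis) of the 20 sterol genes and the 3 LXR targets (rows, LXR targets under the dotted line) for DiBASC2 against control (blue) and against Di-2-ANEPEQ (orange); filled points were called. Called sterol genes lie left of 0 under both references and Abcg1 lies right of 0, while the low-count Tm7sf2 and Fdps have wide intervals.

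In LPS 10 of the 20 sterol genes were higher by small amounts and the LXR targets split. Of 35 members, 19 were called (54.3%), against 28.3% of all genes tested, 13 higher (13.8% of all genes) and 6 lower (14.5%). Among the 20 sterol genes 10 rose, 1 fell and 9 were not called; 12 log2 fold changes were positive and 8 negative. Their median was 0.06, beside -0.01 over all genes, and 0.02 with upper-quartile scaling factors. The summed sterol level was 2611 ± 8.63 CPM, the highest of the 8 groups, beside 2364 ± 58.6 CPM in control (SD, n = 3 each).

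The largest changes were among the LXR targets. Abca1, which hands cholesterol to lipid-poor apolipoproteins, rose from 33.4, 33.9 and 34.5 CPM in control to 60.9, 54.3 and 55.2 CPM (log2 fold change 0.74, SE 0.0716, adjusted p = 8.28e-11). Abcg1 fell from 38.5, 44.2 and 39.8 to 20.5, 21.3 and 25.1 CPM (log2 fold change -0.87, SE 0.0708, adjusted p = 7.88e-13). Mylip fell from 12.3, 13.7 and 14.6 to 9.89, 8.84 and 10.4 CPM (log2 fold change -0.48, SE 0.106, adjusted p = 0.000448). The 3 genes share LXR as a regulator; 1 rose and 2 fell, and none of their libraries overlapped with control. The receptor genes were not called, Nr1h2 at 0.15 and Nr1h3 at 0.18 (log2 fold changes).

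Within the mevalonate arm Idi1 rose from 72.5, 70.2 and 69.0 to 85.6, 88.3 and 86.4 CPM (log2 fold change 0.30, SE 0.0505, adjusted p = 1.11e-05) and Hmgcs1 from 329.9, 302 and 309 to 375, 381 and 395 CPM (log2 fold change 0.29, SE 0.0372, adjusted p = 5.22e-08). Pmvk, phosphomevalonate kinase, rose by 0.22 on the log2 scale. From squalene on, Hsd17b7 rose to 53.3, 53.2 and 57.5 CPM (log2 fold change 0.23, SE 0.0532, adjusted p = 0.000719), and Cyp51 (0.20), Msmo1 (0.15), Sc5d (0.14), Fdft1 (0.13) and Sqle (0.09) were higher as log2 fold changes. Sqle stood at 289, 279.5 and 273 CPM in control and 303, 299 and 296 CPM in LPS, without overlap. Dhcr7, the reductase of a last step, was the 1 lower sterol gene (-0.15).

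The regulators rose with them: Srebf2 from 363, 376 and 379 to 426, 435 and 436 CPM (log2 fold change 0.21, SE 0.0347, adjusted p = 5.15e-06), Insig1 from 240.3, 227 and 225 to 261, 259 and 251 CPM (log2 fold change 0.15, SE 0.0386, adjusted p = 0.00203), and Insig2 by 0.22 on the log2 scale. Srebf1 stood at 108, 115 and 114 CPM in control and 115, 107 and 106 CPM in LPS (log2 fold change -0.04, 95% interval -0.12 to 0.05, adjusted p = 0.573) and was not called. The fatty acid branch went the other way, with 3 of 6 tested genes lower and 0 higher. Scd2, the main desaturase gene of these cells, fell from 790.1, 806 and 801 to 579.8, 522 and 512 CPM (log2 fold change -0.57, SE 0.0402, adjusted p = 1.69e-14). The elongase gene Elovl6 went from 79.5, 86.3 and 89.2 to 81.8, 68.8 and 71.3 CPM, with 1 LPS library inside the control range (log2 fold change -0.20, SE 0.0503, adjusted p = 0.00176), and Fads1, which makes polyunsaturated fatty acids, fell by 0.19 on the log2 scale. Fasn, Acaca and Acly were not called. Of the 19 calls, 13 held without any 1 library. Pmvk was lost without control replicate 1 (adjusted p = 0.0585), Dhcr7 without control replicate 2 (0.0746), and Fdft1, Sqle, Sc5d and Insig2 without any of 4, 4, 3 and 3 libraries, with adjusted p up to 0.0858, 0.149, 0.0741 and 0.101. The last 4 were also lost with upper-quartile factors, and Dhcr7 once length and GC trends were removed.

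In (GT)6 SWCNT 4 of 6 tested fatty acid genes, Abcg1 and Mylip fell, 5 sterol genes rose, and Abca1 was not called. Of 35 members, 14 were called (40%), against 20.4% of all genes tested, 7 higher (9.90% of all genes) and 7 lower (10.5%). All 6 tested fatty acid genes were negative and 4 were called, with a median log2 fold change of -0.18 beside -0.02 over all genes. Their summed level was 2200 ± 14.1 CPM, beside 2513 ± 76.8 CPM in control (SD, n = 3 each).

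Elovl6 fell most, from 79.5, 86.3 and 89.2 to 62.0, 65.9 and 63.3 CPM (log2 fold change -0.42, SE 0.0507, adjusted p = 3.7e-08). Scd2 went from 790.1, 806 and 801 to 646, 657 and 668 CPM (log2 fold change -0.28, SE 0.04, adjusted p = 7.81e-07). The elongase and the desaturase act in turn on palmitate, and every (GT)6 SWCNT library was below every control library for both. Acaca and Fasn, the carboxylase and the synthase that build palmitate, fell by 0.19 and 0.17 on the log2 scale. Of the LXR targets, Abcg1 stood at 32.4, 29.4 and 30.2 CPM (log2 fold change -0.41, SE 0.0674, adjusted p = 1.02e-05) and Mylip at 10.2, 9.97 and 11.7 CPM (log2 fold change -0.36, SE 0.103, adjusted p = 0.00939). Abca1 stood at 30.1, 33.8 and 36.2 CPM, on both sides of the control libraries (log2 fold change -0.03, 95% interval -0.18 to 0.12, adjusted p = 0.833).

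Among the 20 sterol genes 5 rose and 1 fell, and 9 were positive and 11 negative. Hsd17b7 rose from 47.8, 45.7 and 46.2 to 55.8, 58.1 and 57.9 CPM (log2 fold change 0.30, SE 0.0527, adjusted p = 3.63e-05), and Msmo1 from 229, 200.4 and 199 to 238, 239 and 241 CPM (log2 fold change 0.19, SE 0.0404, adjusted p = 0.000443). Pmvk went from 42.1, 49.9 and 44.2 to 52.8, 54.1 and 48.8 CPM, with overlap (log2 fold change 0.19, SE 0.0611, adjusted p = 0.0219). Sc5d (0.15) and Cyp51 (0.11) were also higher and Acat2 (-0.15) was lower as log2 fold changes. The median of the 20 was -0.01. Of the earlier steps, Hmgcs1 stood at 322, 332 and 322 CPM (log2 fold change 0.05, 95% interval -0.02 to 0.13, adjusted p = 0.366) and Sqle at 287, 284 and 285 CPM (log2 fold change 0.02, 95% interval -0.04 to 0.09, adjusted p = 0.69), neither called.

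Insig2, the INSIG form whose transcription does not depend on SREBP in most cells, was the most raised member, from 24.2, 22.4 and 20.99 to 27.9, 29.3 and 27.4 CPM (log2 fold change 0.33, SE 0.0701, adjusted p = 0.000554). Insig1 stood at 229.9, 221 and 237 CPM, inside and around the control values, and was not called (log2 fold change -0.01, 95% interval -0.09 to 0.07, adjusted p = 0.887). Srebf2 rose to 401, 403 and 395 CPM (log2 fold change 0.10, SE 0.0348, adjusted p = 0.0333), while Srebf1 at 104, 107 and 111 CPM was not called (log2 fold change -0.06, 95% interval -0.15 to 0.02, adjusted p = 0.336). The calls of Elovl6, Scd2, Acaca, Abcg1, Hsd17b7, Msmo1 and Insig2 held without any 1 library. Mylip was lost without control replicate 3 or (GT)6 SWCNT replicate 2 (adjusted p up to 0.0663), Fasn without control replicate 2 or 3 (up to 0.0676), Sc5d without control replicate 2 or (GT)6 SWCNT replicate 2 (up to 0.0625), and Acat2, Pmvk, Cyp51 and Srebf2 without any of 4 libraries each (up to 0.235, 0.151, 0.148 and 0.147). Cyp51 and Srebf2 were lost with upper-quartile factors, these and Acat2 without a low-count filter, and Acat2 in the DESeq2 test. The count of called members was 9 without control replicate 3 and 9 without (GT)6 SWCNT replicate 2. Over all genes 2060 and 2068 were called in these fits, against 2680 with every library.

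In COOH SWCNT Abca1 rose, Abcg1 and Elovl6 fell, and most sterol genes were not called. Of 35 members 8 were called (22.9%), against 20.0% of all genes tested, 4 higher (9.39% of all genes) and 4 lower (10.6%). That share is near the background and says nothing particular of the genes as a group. The single changes were as follows. Abca1 rose from 33.4, 33.9 and 34.5 to 50.5, 48.6 and 46.3 CPM (log2 fold change 0.51, SE 0.0717, adjusted p = 1.17e-06), all 3 libraries above all controls. Abcg1 fell from 38.5, 44.2 and 39.8 to 34.7, 37.7 and 35.2 CPM (log2 fold change -0.19, SE 0.0656, adjusted p = 0.0318), and Mylip at 14.1, 12.5 and 13.7 CPM lay among the controls (log2 fold change 0.00, 95% interval -0.20 to 0.19, adjusted p = 0.982).

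Hsd17b7 rose to 56.5, 56.8 and 53.6 CPM (log2 fold change 0.26, SE 0.0524, adjusted p = 4e-04). Acat2, the thiolase that makes acetoacetyl-CoA, fell from 80.2, 75.2 and 76.7 to 67.2, 63.5 and 65.4 CPM (log2 fold change -0.24, SE 0.0501, adjusted p = 0.000485), and Cyp51 to 438, 423 and 439 CPM (log2 fold change -0.10, SE 0.0371, adjusted p = 0.0409). So 1 sterol gene was higher and 2 were lower, with a median of -0.01. Hmgcs1 (328, 306 and 303 CPM, log2 fold change -0.01, 95% interval -0.08 to 0.07, adjusted p = 0.947), Sqle (281, 285 and 278 CPM, log2 fold change 0.00, 95% interval -0.06 to 0.07, adjusted p = 0.959) and Insig1 (229, 224 and 235 CPM, log2 fold change -0.01, 95% interval -0.09 to 0.07, adjusted p = 0.907) were not called. Their libraries overlapped with control.

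Among the regulators, Srebf2 rose to 415, 421 and 402 CPM (log2 fold change 0.15, SE 0.0347, adjusted p = 0.00171) and Scap from 73.8, 79.96 and 76.4 to 86.7, 88.0 and 84.0 CPM (log2 fold change 0.17, SE 0.0395, adjusted p = 0.00202). Srebf1 stood at 122, 123 and 116 CPM, above all control libraries, but was not called (log2 fold change 0.10, 95% interval 0.02 to 0.19, adjusted p = 0.0835). Elovl6 fell to 74.7, 71.3 and 72.2 CPM (log2 fold change -0.22, SE 0.0497, adjusted p = 0.00102), and it was the 1 called fatty acid gene; Scd2 was -0.03 on the log2 scale. The Scap call was lost once trends with gene length and GC content were removed. The Abcg1 call was lost without control replicate 2, COOH SWCNT replicate 1 or COOH SWCNT replicate 3 (adjusted p up to 0.236), and that of Cyp51 without any of 5 libraries (up to 0.153), with upper-quartile factors, without a low-count filter and in a fit of only the 2 groups.

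**Figure D4:**
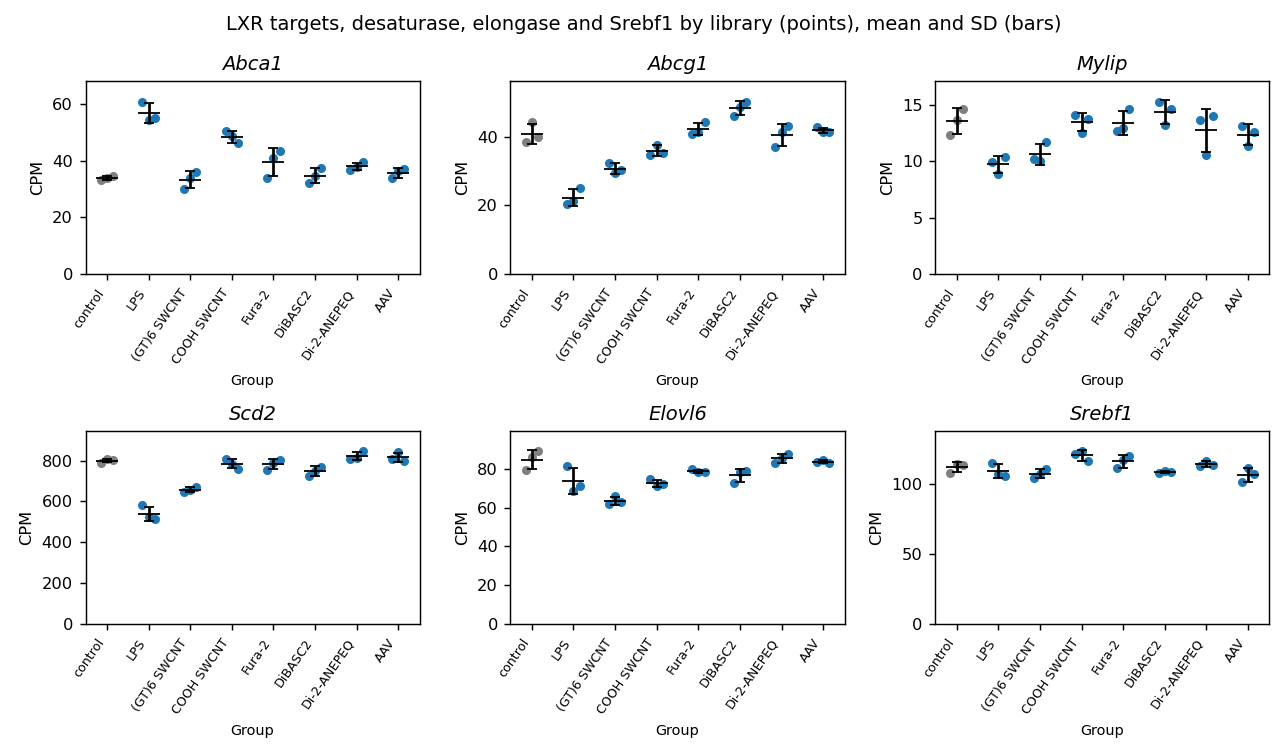
CPM of the 3 LXR targets, of Scd2 and Elovl6 and of Srebf1 (panels, linear axes from 0) in the 8 groups; points are the 3 libraries, gray for control, and black marks give the mean and SD. Abca1 is high in LPS and COOH SWCNT, Abcg1 is low in LPS and (GT)6 SWCNT and highest in DiBASC2, and Scd2 is low in LPS and (GT)6 SWCNT.

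Set against each other, the nanotubes differed in the 3 LXR targets among the members and in most of the fatty acid genes. In (GT)6 SWCNT against COOH SWCNT, 15 of 35 members were called (42.9%), against 21.4% of all genes tested, 5 higher (11.9% of all genes) and 10 lower (9.48%). All 3 LXR targets were lower in (GT)6 SWCNT: Abca1 (30.1, 33.8 and 36.2 against 50.5, 48.6 and 46.3 CPM; log2 fold change -0.54, SE 0.0713, adjusted p = 5.3e-07), Mylip (10.2, 9.97 and 11.7 against 14.1, 12.5 and 13.7 CPM; log2 fold change -0.36, SE 0.101, adjusted p = 0.00928) and Abcg1 (log2 fold change -0.22, SE 0.0673, adjusted p = 0.0165). None of their libraries overlapped. Of the 6 fatty acid genes 5 were lower, with a median of -0.20: Scd2 (646, 657 and 668 against 806, 785 and 761 CPM; log2 fold change -0.26, SE 0.0399, adjusted p = 1.1e-05), Fasn (751, 735 and 724 against 874, 863 and 845 CPM; log2 fold change -0.22, SE 0.0485, adjusted p = 0.000825), Acaca (-0.21), Elovl6 (-0.19) and Fads1 (-0.10). Srebf1 was lower as well, at 104, 107 and 111 against 122, 123 and 116 CPM (log2 fold change -0.17, SE 0.0421, adjusted p = 0.0038), as was Scap (-0.13).

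Of the 20 sterol genes 4 were higher (20%), 0 were lower and 16 were not called, a share near the 21.4% of all genes called; 13 were positive and 7 negative. Cyp51 stood at 505, 484 and 519 CPM in (GT)6 SWCNT and 438, 423 and 439 CPM in COOH SWCNT (log2 fold change 0.21, SE 0.037, adjusted p = 4.88e-05). Sc5d stood at 142, 145 and 137 and 124, 122 and 124 CPM (log2 fold change 0.20, SE 0.043, adjusted p = 0.000882), and Msmo1 at 238, 239 and 241 and 206, 216 and 207 CPM (log2 fold change 0.19, SE 0.0402, adjusted p = 0.000646). In these 3 genes no library overlapped. Idi1 (0.15) was higher with overlap, and Insig2 was higher at 27.9, 29.3 and 27.4 against 24.1, 24.6 and 25.4 CPM (log2 fold change 0.19, SE 0.068, adjusted p = 0.0371). The calls of Cyp51, Sc5d, Msmo1, Abca1, Scd2, Fasn, Acaca, Elovl6 and Srebf1 held without any 1 library. Those of Abcg1, Srebf1, Scap and Fads1 were lost once length and GC trends were removed. The Fads1 call was lost in 6 of the 8 settings that used every library, among them the DESeq2 test and the replicate block. Idi1 and Insig2 were lost with upper-quartile factors, and Insig2 and Scap without a low-count filter. Abcg1 was lost without COOH SWCNT replicate 2 or (GT)6 SWCNT replicate 2 (adjusted p up to 0.0907), Scap without COOH SWCNT replicate 2 (0.0513), Mylip without any of 3 libraries (up to 0.0551), Idi1 and Insig2 without any of 4 (up to 0.178 and 0.148), and Fads1 without any of the 6 (up to 0.165).

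Against LPS, several sterol genes were lower in both nanotube groups. In COOH SWCNT against LPS 18 of 35 members were called (51.4%), against 37.8% of all genes tested, 7 higher (18.1% of all genes) and 11 lower (19.7%), and 10 of the 20 sterol genes were lower and 1 higher. In (GT)6 SWCNT against LPS 14 were called (40%), against 21.6% of all genes, 3 higher (9.63%) and 11 lower (11.9%), and 6 of the 20 sterol genes were lower and 0 higher. Idi1 stood at 85.6, 88.3 and 86.4 CPM in LPS, 63.5, 61.5 and 74.3 CPM in COOH SWCNT (log2 fold change -0.38, SE 0.05, adjusted p = 8.14e-08) and 76.1, 73.8 and 71.9 CPM in (GT)6 SWCNT (log2 fold change -0.23, SE 0.05, adjusted p = 0.000585). Hmgcs1 was also below LPS in both, with log2 fold change -0.30, SE 0.037, adjusted p = 3.26e-08 for COOH SWCNT and log2 fold change -0.24, SE 0.0371, adjusted p = 3.67e-06 for (GT)6 SWCNT. Insig1 was lower by 0.16 and 0.16 on the log2 scale. Cyp51 and Acat2 separated COOH SWCNT from LPS at -0.31 and -0.23.

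The exporters separated the nanotubes from LPS in opposite directions. Abca1 was lower in (GT)6 SWCNT (log2 fold change -0.77, SE 0.0713, adjusted p = 3.93e-11) and, by less, in COOH SWCNT (log2 fold change -0.23, SE 0.0679, adjusted p = 0.00724), a call lost without LPS replicate 1 (adjusted p = 0.0551). Abcg1 was higher in both, with log2 fold change 0.46, SE 0.0726, adjusted p = 4.8e-06 for (GT)6 SWCNT and log2 fold change 0.68, SE 0.0708, adjusted p = 5.68e-10 for COOH SWCNT. Mylip was higher in COOH SWCNT (log2 fold change 0.48, SE 0.103, adjusted p = 0.000317) and not called in (GT)6 SWCNT (log2 fold change 0.12, 95% interval -0.10 to 0.34, adjusted p = 0.506). Scd2 and Fads1 were higher than in LPS in both nanotube groups: Scd2 by 0.29 in (GT)6 SWCNT and 0.54 in COOH SWCNT, Fads1 by 0.12 and 0.22 on the log2 scale. Fasn, at 751, 735 and 724 CPM in (GT)6 SWCNT and 894, 836 and 865 CPM in LPS, was lower (log2 fold change -0.23, SE 0.0485, adjusted p = 0.000352), as was Elovl6 (-0.21). Srebf2 was lower in (GT)6 SWCNT than in LPS (log2 fold change -0.11, SE 0.0347, adjusted p = 0.0149), which was lost without LPS replicate 2 (0.0513). In (GT)6 SWCNT the Fads1 call was lost without any of 4 libraries (adjusted p up to 0.157), without a low-count filter and once length and GC trends were removed. Acat2, Mvd, Fdft1 and Acaca were also lost without any of 4 libraries (up to 0.289, 0.219, 0.0801 and 0.284), and these and Srebf2 with upper-quartile factors and in a fit of only the 2 groups. In COOH SWCNT Pmvk and Sqle were lost without any of 3 and 4 libraries (up to 0.106 and 0.0892) and with upper-quartile factors, and Dhcr7, Srebf1 and Scap once length and GC trends were removed. The count of called members for (GT)6 SWCNT against LPS was 9 without (GT)6 SWCNT replicate 2 and 9 without LPS replicate 2. Over all genes 2187 and 2272 were called in these fits, against 2829 with every library.

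In Fura-2, 2 of 35 members were called (5.71%), against 0.252% of all genes tested, and both were lower (0.213% of all genes; 0.0381% were higher). Cyp51 stood at 415, 409.9 and 397 CPM, below the 475, 458 and 465 CPM of control (log2 fold change -0.19, SE 0.0371, adjusted p = 0.0162), and Insig1 at 203, 206 and 200.4 CPM, below 240.3, 227 and 225 CPM (log2 fold change -0.18, SE 0.0388, adjusted p = 0.0233). These were also among the lowest in DiBASC2. Of the 20 sterol genes 19 were negative in Fura-2, with a median of -0.09 beside 0.00 over all genes, and their summed level was 2186 ± 30.1 CPM (SD, n = 3). Sqle had no overlap with control but was not called (log2 fold change -0.09, 95% interval -0.16 to -0.02, adjusted p = 0.271). Both calls were lost without control replicate 1, control replicate 3, Fura-2 replicate 2 or Fura-2 replicate 3 (adjusted p up to 0.194 for Cyp51 and 0.243 for Insig1), and 0 members were then called. In each of these fits 0 of all 13116 genes were called, so the loss is not particular to the members. Abca1 at 33.9, 41.01 and 43.4 CPM (log2 fold change 0.22, 95% interval 0.07 to 0.36, adjusted p = 0.234) was not called.

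In Di-2-ANEPEQ, 1 of 35 members was called (2.86%), against 3.08% of all genes tested, and it was higher (0.686% of all genes; 2.39% were lower); the share is near the background. It was Mvd, the mevalonate pathway decarboxylase, at 67.9, 66.1 and 67.0 CPM against 59.9, 58.7 and 60.1 CPM (log2 fold change 0.17, SE 0.0451, adjusted p = 0.0269), and the call was lost without any 1 of the 6 libraries (adjusted p up to 0.0891). In AAV, 1 member was called (2.86%), against 5.00% of all genes tested, and it was higher (1.84% of all genes; 3.16% were lower), again near the background. Hmgcs1 stood at 359, 359.6 and 347 CPM in AAV and 329.9, 302 and 309 CPM in control (log2 fold change 0.18, SE 0.037, adjusted p = 0.00386), without overlap, and stayed called without any 1 library. No LXR target was called in Fura-2, Di-2-ANEPEQ or AAV.

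Across the 7 treatments, Nr1h2, Nr1h3, Srebf1, Mvk, Fdps, Lss, Ebp, Tm7sf2 and Acly were not called against control in any. For the receptor genes the log2 fold changes ran from 0.04 to 0.15 (Nr1h2) and from -0.11 to 0.18 (Nr1h3). Cyp51 was called in 5 treatments, higher in LPS and (GT)6 SWCNT and lower in COOH SWCNT, Fura-2 and DiBASC2. Hsd17b7 was called in 4, higher in LPS and both nanotube groups and lower in DiBASC2. Srebf2 was higher in LPS and both nanotube groups, with -0.04 in DiBASC2. Over the 8 group means of log2 CPM, the genes most like Abca1 were Atxn1 (Pearson r = 0.957), Rgcc (0.954) and Rabac1 (0.944), and those most like Hmgcs1 were Stim2 (0.969), Ythdf2 (0.957) and Epc1 (0.956). These are descriptions over 8 groups, picked as the highest of all tested genes.

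Other genes of these pathways were counted from lists. The counts stand beside 28.3% of all genes called in LPS, 20.4% in (GT)6 SWCNT, 20.0% in COOH SWCNT, 0.252% in Fura-2, 5.47% in DiBASC2, 3.08% in Di-2-ANEPEQ and 5.00% in AAV. Of 8 further genes of sterol synthesis and uptake, 6 were tested, and in DiBASC2 4 of them were lower and 0 higher, with a median of -0.20. The same 6 gave 2 higher and 1 lower in LPS, 3 and 1 in (GT)6 SWCNT, 3 and 0 in COOH SWCNT, 0 and 0 in Fura-2 and Di-2-ANEPEQ, and 0 and 1 in AAV. Of 9 genes of SREBP processing and sterol sensing 8 were tested, and 1 was higher and 1 lower in LPS and in (GT)6 SWCNT, 0 and 1 in DiBASC2, and 0 in the other 4 treatments. Of 19 other fatty acid and glycerolipid genes 17 were tested, with 4 higher and 4 lower in LPS, 2 and 4 in (GT)6 SWCNT, 0 and 1 in COOH SWCNT, 0 and 3 in DiBASC2, and 0 and 1 in AAV. Of 7 further LXR targets 4 were tested, and 0 were called in any treatment against control. In (GT)6 SWCNT against COOH SWCNT, too, 0 of these 4 were called, beside 21.4% of all genes, and 2 were positive and 2 negative. Of 13 genes for oxysterols, lipoproteins and lipid storage 10 were tested, and 7 were lower (70%; 14.5% of all genes were lower) and 0 higher in LPS, with a median of -0.14. The same 10 gave 0 higher and 2 lower in (GT)6 SWCNT, 2 and 1 in COOH SWCNT and 0 in the other 4 treatments. Rnf145, a ubiquitin ligase of sterol sensing, was the 1 gene of these lists past an absolute log2 fold change of 1 in a comparison, (GT)6 SWCNT against LPS, and was chosen after its values were seen. The control libraries stood at 76.2, 78.9 and 76.9 CPM, those of LPS at 119, 128 and 119.7 CPM, and the libraries of (GT)6 SWCNT and of COOH SWCNT at 47.7, 53.3 and 50.6 CPM and 75.7, 77.3 and 78.5 CPM. The gene was higher in LPS than in control (log2 fold change 0.66, SE 0.0454, adjusted p = 8.28e-15) and lower in (GT)6 SWCNT (log2 fold change -0.62, SE 0.0485, adjusted p = 8.99e-13), with no overlap, and not called in COOH SWCNT (log2 fold change 0.00, 95% interval -0.10 to 0.09, adjusted p = 0.962). It was lower in (GT)6 SWCNT than in LPS (log2 fold change -1.28, SE 0.0471, adjusted p = 7.91e-23). Ch25h, which makes an oxysterol ligand of LXR and responds to interferon in macrophages, had 2 reads in LPS replicate 2, 1 in COOH SWCNT replicate 3 and 0 in every other library.

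Some values may include reads of neighbours, or lack reads shared with them. The counting tool and its use of strand are not given in the sources used here. Fdft1 overlaps Ctsb on the opposite strand over 774 exonic bases, and Ctsb stood at 3344 CPM in control, far above Fdft1, so its value is uncertain. Cyp51 overlaps Akap9 (149 CPM) over 166 bases. The log2 fold change of Akap9 was 0.03 in DiBASC2 and in LPS. For COOH SWCNT it was -0.091, where Cyp51 was called lower too. For (GT)6 SWCNT it was -0.115, where Cyp51 was called higher. Whether reads of Akap9 entered the Cyp51 values was not tested. Srebf1 overlaps Rai1 over 109 bases. Tm7sf2 shares 532 bases with Vps51 and Fdps 1124 bases with Gm43738 on the same strand. In control Vps51 stood at 2.71 CPM and Gm43738 at 0 CPM. Whether the counting of shared reads lowered Tm7sf2 and Fdps was not tested. Nr1h2 has the pseudogene Nr1h2-ps.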

How the data were processed

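Poly-A RNA of 24 SIM-A9 libraries was analysed from 1 table of raw read counts per gene, deposited by the authors; per the submitters' processing notes, STAR 2.5.4b and GRCm38.p6 were used. The counting tool, strand use and treatment of reads with several matches are not given in the sources used here. Of 54838 identifiers, 53947 matched GENCODE M21 (GRCm38) with their version, 54809 without it, and 29 did not match. Counts were tested in R 4.3.3 with edgeR 4.0.16: filterByExpr (13116 genes kept), TMM factors, 1 glmQLFit model with a mean per group over all 24 libraries (16 residual degrees of freedom) and glmQLFTest, two-sided, Benjamini-Hochberg adjusted over all genes of a comparison, called under 0.05. SE is the absolute log2 fold change divided by the square root of F. CPM use TMM-scaled totals, and RPKM divide them by union exon length. The biological coefficient of variation was 4.12%. All 24 replicate pairs differed by more than sampling noise (chi-square per degree of freedom 2.52 to 20.5). The highest value was that of LPS replicates 1 and 3. DiBASC2 replicate 1 gave 15.1 and 15.6 against the other replicates, which gave 4.15 between them. (GT)6 SWCNT replicate 3 gave 13.5 and 10.4, and replicates 1 and 2 gave 2.52. Groups came from sample titles. There were 10 comparisons, and 1 was added after values had been seen.

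Members and gene lists were chosen with earlier results of these data known. Per-library values are printed for the 4 highest and 4 lowest called members of a comparison, and for Insig1, Hmgcs1, Sqle, Srebf1, Srebf2, Abca1, Abcg1 and Mylip in LPS and both nanotube groups; list genes outside the members are named if called and moved by 1 or more on the log2 scale in a treatment against control, which 0 reached, and Ch25h always; Rnf145 was added after its values were seen. Alternatives were other scaling factors, DESeq2 1.42.0, other filters, fits of only the groups compared, a replicate block, a length and GC correction and leaving out each library. The scripts were tested on simulated data. Promoter windows are RefSeq's.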

Additional observations from a re-analysis of the deposited data

How the results depend on the processing

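No called member changed its direction under the alternatives, while several list medians that lay near 0 crossed it. Of the calls of single members, 904 were kept and 72 lost over all comparisons and settings that used every library, and 587 were kept and 145 lost when 1 library was left out; 36 and 20 values became called. The replicate numbers do not pair the libraries: same-numbered libraries correlated at -0.104 to 0.07 in 84 pairs, and 5 of 24 libraries were closest to their own number. With the replicate block, called members numbered 19 in LPS, 14 in (GT)6 SWCNT, 8 in COOH SWCNT, 13 in DiBASC2 and 2 in Di-2-ANEPEQ. Over all genes 3683, 2631, 2548, 694 and 396 were then called, against 3717, 2680, 2627, 717 and 404 in the reported fit. Called members in Di-2-ANEPEQ were 2 with the DESeq2 test, with the replicate block and in a fit of only the 2 groups, against 1. Over all genes these settings called 539, 396 and 816, against 404. In (GT)6 SWCNT against LPS called members were 9 with upper-quartile factors, without a low-count filter and in a fit of only the 2 groups, against 14. Over all genes 2946, 2655 (of 26840 tested) and 2531 were called there, against 2829.

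Upper-quartile factors moved the median of the sterol genes to 0.0202 in LPS (0.0619 in the reported fit), to 0.025 in (GT)6 SWCNT against COOH SWCNT (0.0462) and to -0.0774 in COOH SWCNT against LPS (-0.1289), and a mean of at least 50 counts moved it to 0.0988 in LPS. They moved the share of higher calls among all genes from 48.7% to 35.4% in LPS, from 33.3% to 54.9% in DiBASC2, from 36.7% to 26.3% in AAV, from 55.6% to 44.4% in (GT)6 SWCNT against COOH SWCNT, from 44.6% to 57.5% and from 47.9% to 62.5% in (GT)6 and COOH SWCNT against LPS, and from 38.8% to 63.4% in DiBASC2 against Di-2-ANEPEQ. The Fdft1 and Nsdhl calls in DiBASC2 were lost under these factors. Removing length and GC trends moved the fatty acid median to -0.1313 in (GT)6 SWCNT against COOH SWCNT (-0.1996) and to -0.0267 in COOH SWCNT against LPS (0.0567). The cause was not tested.

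Leaving out 1 library gave 9 to 13 called members in (GT)6 SWCNT, 0 to 3 in Fura-2, 8 to 11 in DiBASC2, 0 to 1 in Di-2-ANEPEQ and 9 to 13 in (GT)6 SWCNT against LPS. Over all genes the same fits called 2037 to 2626, 0 to 99, 345 to 563, 123 to 420 and 2187 to 2743. The LXR target median ranged from 0.0033 to 0.1088 in Fura-2, from -0.0646 to 0.0472 in Di-2-ANEPEQ and from 0.0558 to 0.2383 in DiBASC2 against Di-2-ANEPEQ. The sterol median ranged from 0.0299 to 0.0616 in (GT)6 SWCNT against COOH SWCNT and from -0.1408 to -0.0892 in COOH SWCNT against LPS. Low counts limit Tm7sf2 and Fdps, whose intervals are wide, and leave Scd1, Fads2 and Ch25h untested.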
